A study of Mus musculus with 6 samples.

Results

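The genes described here are 10 markers of the endothelium of the liver, *Stab1*, *Stab2*, *Lyve1*, *Clec4g*, *Oit3*, *Kdr*, *Pecam1*, *Egfl7*, *Bmp2* and *Wnt2*, among 54115 genes counted in mouse liver. They were chosen by name, as known markers of sinusoidal and vascular endothelial cells, with earlier results of these data known. All 10 passed the filter on low counts, which left 12524 genes. Whole livers were compared between 3 WT male mice and 3 male *Sirt7* KO mice. SIRT7 is a nuclear deacylase of the sirtuin family. Mice of both genotypes were 24 months old and had been fasted for 16 h. The knockout is carried by every cell of the animal, was backcrossed to C57BL/6J, and WT and *Sirt7* KO littermates came from crosses of heterozygous parents. None of the mice was young or fed, so the comparison is limited to old, fasted males.

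Liver sinusoidal endothelial cells line the capillaries of the liver. They lack a basement membrane, carry open pores, and clear waste molecules from the blood through scavenger receptors such as the stabilins. They also instruct their neighbors through secreted ligands: BMP2 and BMP6 set the production of the iron hormone hepcidin in hepatocytes, and WNT2 and WNT9B sustain the pericentral program of hepatocytes. With age or injury these cells can lose their pores and turn on genes of larger vessels, which is called capillarization.

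The regulatory sequences of the markers with the most reads are shown to place these genes in the genome. On GRCm38.p6 they lie before *Stab2* (chr10:87008026-87008192, minus strand) and before *Clec4g* (chr8:3720652-3720901, minus strand). Each stretch ends where the gene begins in GENCODE M21. For *Clec4g* this is also the RefSeq start, whereas the RefSeq start of *Stab2* lies further downstream, beyond the printed bases. Capitals mark the letters CAGGAA, which hold GGAA, the core recognized by ETS family factors such as the endothelial regulator ERG. They stand 138 bases before the RefSeq start of *Stab2* and 216 bases before that of *Clec4g*.
Stab2: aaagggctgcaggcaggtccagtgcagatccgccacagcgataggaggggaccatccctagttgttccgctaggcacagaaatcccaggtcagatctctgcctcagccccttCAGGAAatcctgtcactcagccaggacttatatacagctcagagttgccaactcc
Clec4g: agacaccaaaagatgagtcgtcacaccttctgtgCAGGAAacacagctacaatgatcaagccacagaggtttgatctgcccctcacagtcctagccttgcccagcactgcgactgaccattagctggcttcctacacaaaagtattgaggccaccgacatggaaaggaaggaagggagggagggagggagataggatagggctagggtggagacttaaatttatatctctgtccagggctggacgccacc
Among the 6 markers with an entry in the RefSeq promoter table, *Stab1*, *Stab2*, *Clec4g* and *Egfl7* held these letters on either strand within 250 bases before a start. The same letters occurred in 25.7% of all 32851 promoters of that length. This share is counted per promoter, whereas the 6 markers have 8 promoters and are counted per gene, so the 2 are not directly comparable. A match is a description of the sequence and not evidence of binding.

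*Egfl7* also hosts a microRNA of endothelial cells, miR-126a, in an intron. Its mature 3p sequence lies at chr2:26591402-26591423 (GRCm38.p6, plus strand) and is shown with the seed, bases 2 to 8, in capitals.
miR-126a-3p: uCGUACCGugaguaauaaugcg
The hairpin of this microRNA had 0 assigned reads in all 6 livers, and these libraries were made from polyadenylated RNA rather than small RNA, so the level of the microRNA itself was not measured.

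Between 9994860 and 13424776 reads per liver were assigned to transcripts. The 10 markers together received 912 to 1514 of them, so the single markers rest on few reads. Values are given as CPM, the read count of a gene normalized to library size, after TMM scaling between livers. *Sirt7* itself was measured at 55.2, 45.5 and 47.3 CPM in the WT livers and at 28.6, 41.8 and 40.8 CPM in the *Sirt7* KO livers. Reads assigned to its full-length isoform numbered 429, 381 and 408 in WT livers and 124, 135 and 77.5 in *Sirt7* KO livers. By this isoform, every library stood on the side its label gives. For the gene as a whole, reads remained in all *Sirt7* KO livers, at 0.75-fold of WT, and their source was not tested. The tissue label fitted the data, since the 8 hepatocyte markers summed to 52990 to 69070 CPM in every liver, against 91.5 to 139 CPM for the 10 endothelial markers. Fewer endothelial cells and less RNA per endothelial cell cannot be told apart in such whole-tissue samples. Nothing in the labels names a shared litter or day.

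None of the 10 endothelial markers was called between WT and *Sirt7* KO livers in edgeR's quasi-likelihood test (0 of 10 at an adjusted p under 0.05 with a fold change over 1.5). Of all genes tested, 0.00798% were called, which is 1 gene. At an unadjusted p under 0.05 the count was also 0 of 10, against 11.3% of all genes, and the smallest adjusted p among the markers was 0.53. DESeq2 called 0 of 10 without length offsets, where it called 2.16% of all genes, and 1 of 10, *Stab1*, with them. The log2 fold change (*Sirt7* KO over WT) was above 0 for 8 markers and below 0 for 2, against 49.3% of all genes above 0. Their median log2 fold change was 0.20, and that of all genes tested was -0.0061. With total count scaling in place of TMM, these medians were 0.09 and -0.11. For 8 of 10 markers the 95% interval of the difference lay within 2-fold in either direction, which also held for 59.4% of all genes, and the exceptions were *Lyve1* and *Wnt2*. Only 1 of 10 intervals, that of *Stab2*, lay within 1.5-fold. For the other markers, a change of the size required for a call is thus not excluded.

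**Figure D1:**
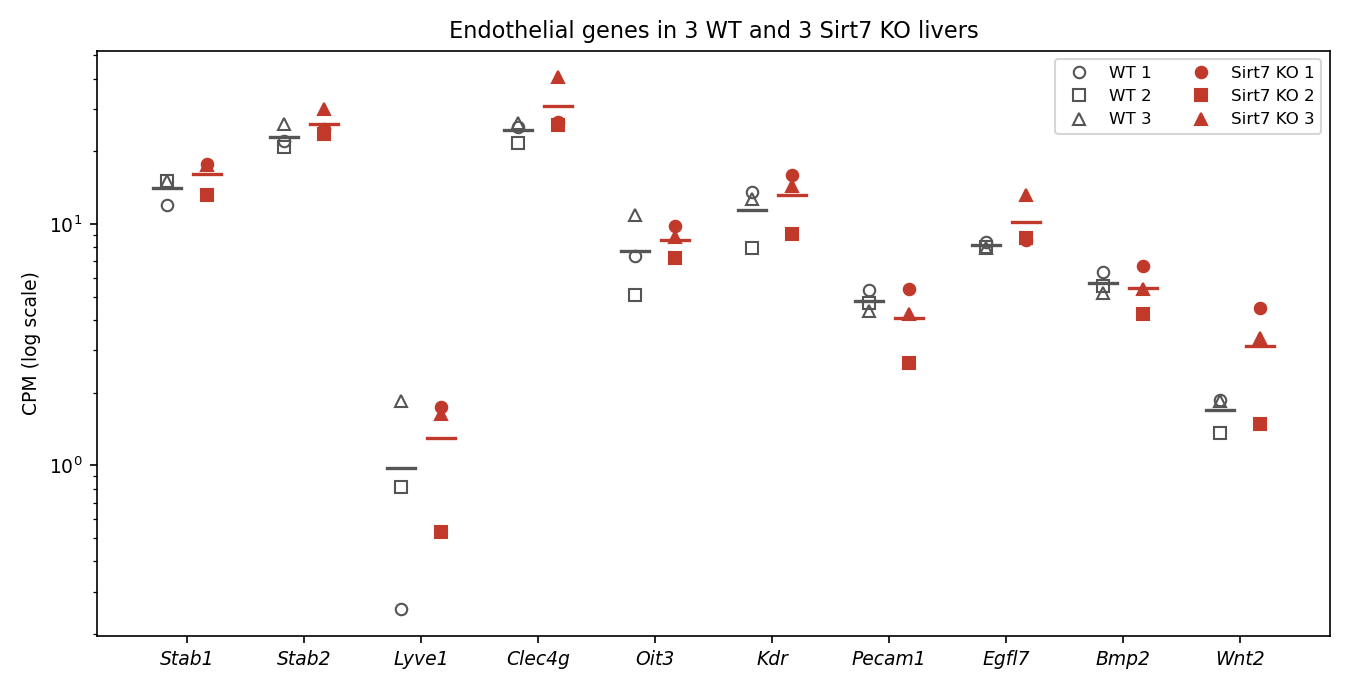
CPM (log scale) of the 10 endothelial markers in each liver, with open grey symbols for 3 WT and filled red symbols for 3 Sirt7 KO livers, a symbol shape per replicate number, and a bar at the mean of each genotype. The genotypes overlap for every marker except Egfl7, and Sirt7 KO 2 is the lowest of the 3 Sirt7 KO livers for all markers except Egfl7.

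The scavenger and endocytic receptors held the markers with the highest CPM, *Clec4g* and *Stab2*, and the one with the lowest, *Lyve1*. *Stab2*, which encodes stabilin-2, the main hyaluronan clearance receptor of the liver, was at 22.2, 20.96 and 25.9 CPM in WT livers and at 24.8, 23.6 and 29.9 CPM in *Sirt7* KO livers. The genotypes overlapped, with WT 3 above the *Sirt7* KO livers 1 and 2, and the log2 fold change was 0.18 (95% interval -0.18 to 0.55, adjusted p = 0.72). *Clec4g*, a C-type lectin that marks sinusoidal endothelium, was at 25.3, 21.8 and 26.3 CPM in WT livers and at 26.6, 25.9 and 40.6 CPM in *Sirt7* KO livers. *Sirt7* KO 3 stood above the other 5 livers, which lay close together. The log2 fold change of *Clec4g* was 0.34 (95% interval -0.12 to 0.80, adjusted p = 0.58), and without *Sirt7* KO 3 it was 0.10.

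*Stab1*, which encodes stabilin-1, a receptor for modified lipoproteins and other waste, was at 12.02, 15.2 and 15.02 CPM in WT livers and at 17.7, 13.1 and 17.6 CPM in *Sirt7* KO livers. *Sirt7* KO 1 and 3 were highest, and *Sirt7* KO 2 lay between the WT livers, with a log2 fold change of 0.20 (95% interval -0.24 to 0.64, adjusted p = 0.75). *Oit3*, whose zona pellucida domain protein is made by sinusoidal endothelial cells, was at 7.37, 5.08 and 10.9 CPM in WT livers and at 9.80, 7.21 and 8.86 CPM in *Sirt7* KO livers. The *Sirt7* KO livers lay inside the range of the WT livers (log2 fold change 0.15, 95% interval -0.53 to 0.82). *Lyve1*, a hyaluronan receptor of sinusoidal and lymphatic endothelium, had few reads, with 3, 9 and 25 reads in WT livers and 19, 5 and 17 reads in *Sirt7* KO livers. Its interval, from 0.42-fold to 4.16-fold, covers large changes in both directions, so a difference in *Lyve1* within these limits could not be told from none. Summed over these 5 receptors, the level was 70.3 ± 8.54 CPM in WT and 83.2 ± 14.3 CPM in *Sirt7* KO livers (SD, n = 3 each).

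The markers that sinusoidal cells share with other vessels also did not pass the test. *Kdr*, which encodes the VEGF receptor VEGFR2, was at 13.6, 7.98 and 12.7 CPM in WT livers and at 15.9, 9.11 and 14.5 CPM in *Sirt7* KO livers. Each genotype held 1 low liver, numbered 2 in both, and the log2 fold change was 0.21 (95% interval -0.42 to 0.83). It was 0.0059 without WT 2 and 0.41 without *Sirt7* KO 2. *Pecam1*, the junction protein CD31, was at 5.33, 4.72 and 4.36 CPM in WT livers and at 5.40, 2.65 and 4.24 CPM in *Sirt7* KO livers. The low value was that of *Sirt7* KO 2, and the log2 fold change of -0.22 (95% interval -0.97 to 0.52) became 0.0058 without it.

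*Egfl7*, which encodes a secreted factor of the vessel wall, was at 8.47, 8.07 and 7.99 CPM in WT livers and at 8.61, 8.79 and 13.2 CPM in *Sirt7* KO livers. It was the only marker whose genotypes did not overlap (1 of 10), with all *Sirt7* KO livers above all WT livers, a pattern that 8.74% of all genes showed in this direction and 16.8% in either. *Sirt7* KO 1 and 2 lay just above the highest WT liver, and *Sirt7* KO 3 stood apart. The log2 fold change was 0.32 (95% interval -0.21 to 0.84, adjusted p = 0.66) and was 0.09 without *Sirt7* KO 3. An exact permutation test gave p = 0.1, the smallest value that 3 against 3 livers allow. Summed over *Kdr*, *Pecam1* and *Egfl7*, the level was 24.4 ± 3.37 CPM in WT and 27.5 ± 6.06 CPM in *Sirt7* KO livers (SD, n = 3 each).

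Neither of the ligands passed the test. *Bmp2* was at 6.35, 5.53 and 5.18 CPM in WT livers and at 6.68, 4.24 and 5.39 CPM in *Sirt7* KO livers. Its *Sirt7* KO livers took both the highest and the lowest place (log2 fold change -0.06, 95% interval -0.67 to 0.55). *Wnt2* was at 1.86, 1.36 and 1.85 CPM in WT livers and at 4.49, 1.48 and 3.37 CPM in *Sirt7* KO livers, from 22, 15 and 25 against 49, 14 and 35 reads. *Sirt7* KO 1 and 3 stood above every WT liver, and *Sirt7* KO 2 lay among them. The log2 fold change of *Wnt2*, 0.88, was the highest of the 10 markers, with a 95% interval of -0.17 to 1.93 and an unadjusted p of 0.0902 (edgeR adjusted p = 0.53). Without *Sirt7* KO 2 it was 1.21 (unadjusted p = 0.0184, edgeR adjusted p = 0.55), and without *Sirt7* KO 1 it was 0.52 (unadjusted p = 0.334), with adjusted p-values from 0.525 to 0.753 over all alternatives.

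**Figure D2:**
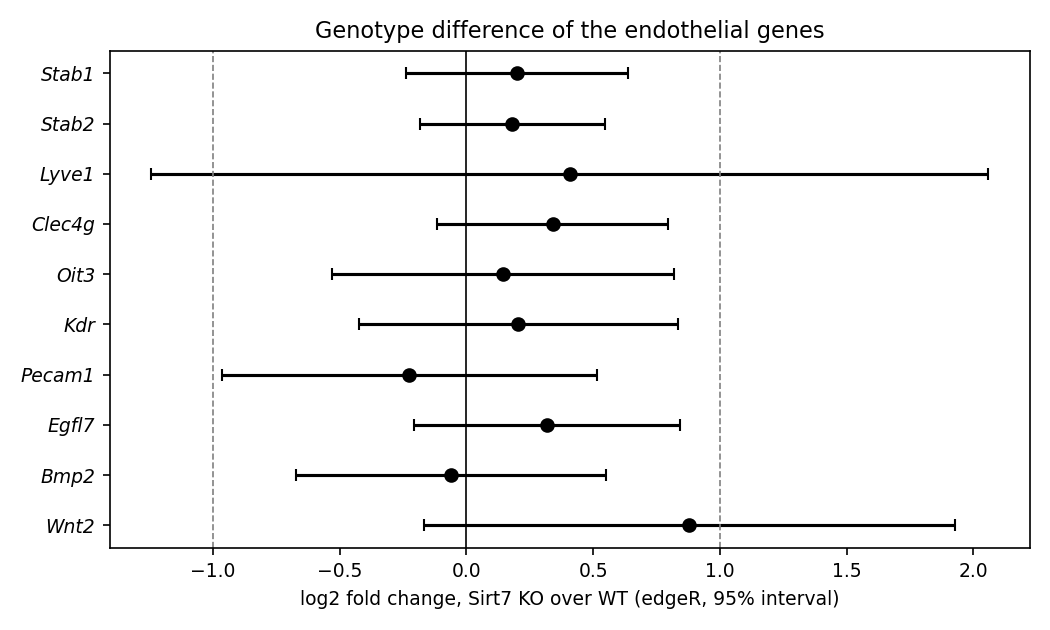
Log2 fold change of each endothelial marker, Sirt7 KO over WT, from edgeR's quasi-likelihood fit of 3 livers per genotype, with bars for the 95% interval and dashed lines at 2-fold in either direction. Every interval includes 0, and only those of Lyve1 and Wnt2 cross a dashed line.

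Levels of different genes were compared per kilobase of the longest protein-coding transcript of each gene, as CPM per kb averaged over the 6 livers. *Clec4g* was highest at 19.25 CPM per kb and *Egfl7* followed at 6.61, and their values did not overlap in any liver. *Oit3* at 3.02 and *Stab2* at 2.99 lay below *Egfl7* in every liver and overlapped each other. *Kdr* at 2.08, *Stab1* at 1.89, *Bmp2* at 1.57, *Pecam1* at 1.29 and *Wnt2* at 1.07 CPM per kb followed, and *Lyve1* was lowest at 0.393. From *Oit3* downward, the range of each marker over the 6 livers overlapped that of its neighbor in this order. Compared within each liver, however, *Stab2* was always above *Kdr*, *Bmp2* above *Pecam1* and *Wnt2* above *Lyve1*. The place of *Egfl7* is uncertain, because only 18.5 to 78.5% of its reads per liver were assigned to protein-coding isoforms, and the same holds for *Stab1*, at 30.1 to 53.1%.

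The *Sirt7* KO livers differed from each other in the same order for most markers, which the WT livers did not. *Sirt7* KO 2 was below the mean of the 6 livers for all 10 markers, while *Sirt7* KO 1 and 3 were each above it for 8. *Sirt7* KO 1 had the highest value for 5 markers, *Sirt7* KO 3 for 3 and WT 3 for 2, and WT 2 had the lowest value for 5. Among the WT livers, *Pecam1*, *Egfl7* and *Bmp2* were highest in WT 1 and lowest in WT 3, whereas *Stab2*, *Lyve1*, *Clec4g* and *Oit3* were highest in WT 3. The summed level was 103, 91.5 and 112 CPM in WT livers and 122, 96.6 and 139 CPM in *Sirt7* KO livers. The genotypes overlapped in this sum too, because *Sirt7* KO 2 lay below WT 1 and WT 3.

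Markers of other cells of the sinusoid also differed between livers. The 12 markers of Kupffer cells, the macrophages of the liver, summed to 97.3, 103 and 244 CPM in WT livers and to 251, 94.8 and 186 CPM in *Sirt7* KO livers, so that WT 3, *Sirt7* KO 1 and *Sirt7* KO 3 were high. All 12 were tested and none was at 0 in every liver, and none was called by edgeR or DESeq2. *Folr2* was the 1 gene of 12 with an unadjusted edgeR p under 0.05, against 11.3% of all genes (log2 fold change 1.08, unadjusted p = 0.0253). *C1qb*, a complement subunit and the most abundant of the list, had a log2 fold change of 0.35 (edgeR unadjusted p = 0.381). Stellate cell markers, of which 10 of 12 were tested, summed to 309, 276 and 353 CPM in WT livers and to 345, 217 and 252 CPM in *Sirt7* KO livers, so that *Sirt7* KO 3, highest for the endothelial sum, was second lowest here. *Sirt7* KO 2 was lowest in both lists and in that of 12 leukocyte markers, where it was at 15.4 CPM against 16.2 to 30.3 CPM in the others. The part of these differences in the levels of the endothelial markers was not tested.

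**Figure D3:**
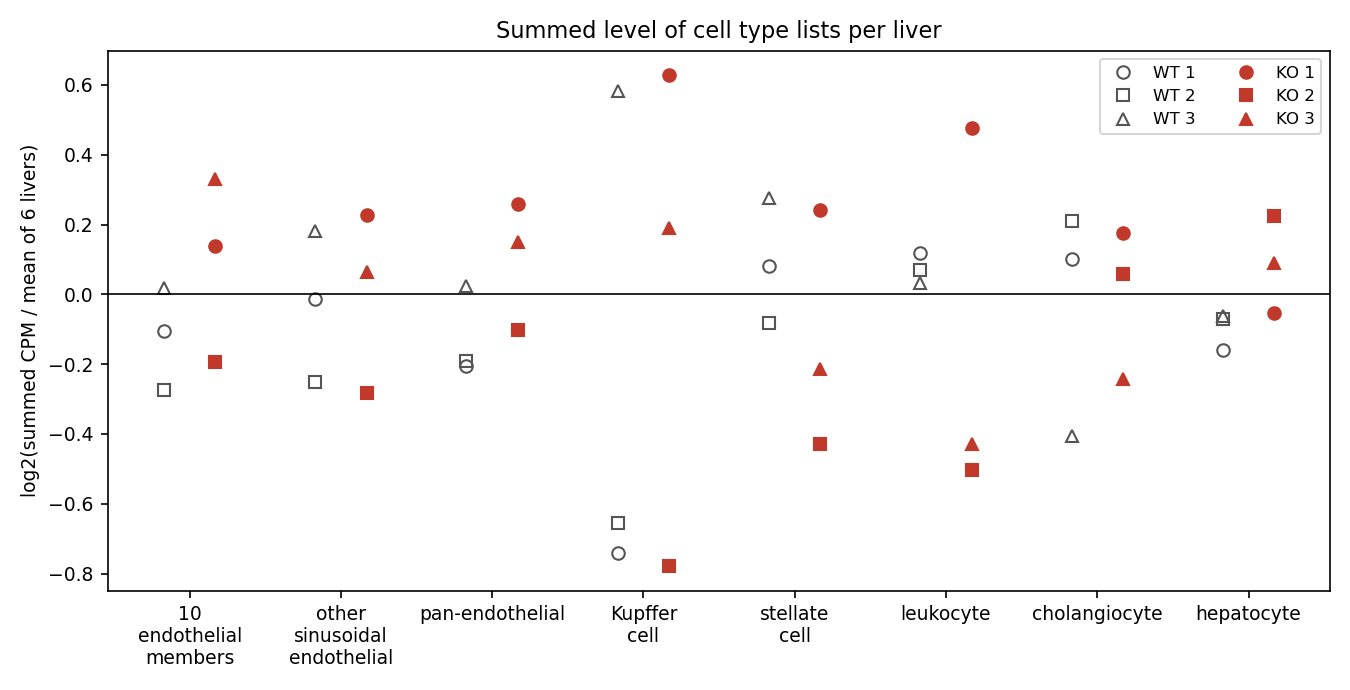
Summed CPM of the 10 endothelial markers and of lists of cell type markers in each liver, as log2 of the ratio to the mean of the 6 livers, with open grey symbols for WT, filled red symbols for Sirt7 KO and a symbol shape per replicate number. Sirt7 KO 2 is below the mean for the endothelial, Kupffer, stellate and leukocyte lists and highest for hepatocyte markers.

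The markers were also set against a list of 24 genes named here as pan-endothelial. This list summed to 170, 172 and 200 CPM in WT livers and to 235, 183 and 218 CPM in *Sirt7* KO livers. *S1pr1* and *Plvap* had the highest mean CPM in it and weigh most in the sum. Per 100 CPM of these pan-endothelial genes, the 5 scavenger and endocytic receptors summed to 39.4, 37.1 and 40.0 CPM in WT livers and to 34.3, 38.4 and 45.2 CPM in *Sirt7* KO livers. *Egfl7* overlapped between the genotypes on this scale (4.55 ± 0.501 in WT and 4.84 ± 1.2 in *Sirt7* KO livers, SD, n = 3 each). *Wnt2* was at 1.09, 0.791 and 0.926 in WT livers and at 1.91, 0.810 and 1.55 in *Sirt7* KO livers, with the same 2 *Sirt7* KO livers above the WT range. All 10 markers overlapped between genotypes on this scale.

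The other endothelial lists were also without a call. Of 16 other sinusoidal endothelial genes, 15 were tested, 0 were called by edgeR or DESeq2 and 0 had an unadjusted p under 0.05, with a median log2 fold change of -0.02. The most abundant by TPM, *Igfbp7*, had a log2 fold change of 0.09 (unadjusted p = 0.617). Of 24 pan-endothelial genes, 20 were tested, and 3 were higher in *Sirt7* KO livers at an unadjusted p under 0.05, where 6.54% of all genes were. The log2 fold change was 0.81 for *Tspan7*, which encodes a tetraspanin (edgeR unadjusted p = 0.00644). It was 0.36 for *S1pr1*, a receptor for a lipid signal of the blood (edgeR unadjusted p = 0.0358), and 0.66 for *Clec14a*, an endothelial lectin (edgeR unadjusted p = 0.0359). In these 3 of 20 genes all *Sirt7* KO livers were above all WT livers, as in 8.74% of all genes. None passed adjustment in edgeR or DESeq2, and *Plvap*, the most abundant of this list by TPM, had a log2 fold change of 0.26 (unadjusted p = 0.396).

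Genes of larger vessels and of capillarization were measured at low levels, with 8 of 15 tested and 0 called by edgeR or DESeq2. An unadjusted edgeR p under 0.05 was found for 1 of the 8, against 11.3% of all genes. *Thbd*, which encodes the anticoagulant receptor thrombomodulin, was at 0.423, 1.27 and 0.444 CPM in WT livers and at 2.84, 1.48 and 2.12 CPM in *Sirt7* KO livers. Its log2 fold change was 1.6 (95% interval 0.30 to 2.90, unadjusted p = 0.0211, edgeR adjusted p = 0.34). *Ly6a*, the most abundant of this list, had a log2 fold change of 0.03.

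The VEGF and angiopoietin pathway, to which the receptor encoded by *Kdr* belongs, had 10 of 14 genes tested and 0 called by edgeR. *Vegfb*, a ligand of VEGFR1, was at 13.7, 15.2 and 8.80 CPM in WT livers and at 7.05, 5.09 and 5.01 CPM in *Sirt7* KO livers, all below the WT livers. Its log2 fold change was -1.13 (unadjusted p = 0.00249, edgeR adjusted p = 0.18), and DESeq2 called it without length offsets (adjusted p = 0.0352) but not with them (adjusted p = 0.0914). *Vegfa*, the main ligand of VEGFR2, had a log2 fold change of -0.15 (unadjusted p = 0.31).

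*Stab1* was the marker whose direction turned with the method. In DESeq2 with offsets for average transcript length, its log2 fold change was -1.22 (DESeq2 adjusted p = 0.00485) and it was the only marker called, while 1.87% of all genes were called there. The offset came from Stab1-202, an annotated non-coding transcript of 242 bases whose effective length in the deposited files was 16.957 bases. It received 7.35, 5.0 and 5.0 reads in WT livers and 0, 0 and 1.64 in *Sirt7* KO livers. Because TPM divides by the effective length, these few reads made up 85.9, 71.0 and 70.0% of the TPM of *Stab1* in WT livers and 0, 0 and 46.5% in *Sirt7* KO livers. Without this transcript, an alternative chosen after seeing the data, the same fit gave a log2 fold change of 0.55 (DESeq2 adjusted p = 0.58).

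The first exons of Stab1-202 are shown because the join between them sets this transcript apart from the full-length one. They lie on the minus strand of GRCm38 at chr14:31140148-31140174 and chr14:31139297-31139324, and capitals mark the bases of the second.
Stab1-202: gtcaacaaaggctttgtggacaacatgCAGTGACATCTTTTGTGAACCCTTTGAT
Each of these exons occurs in the full-length transcript of *Stab1*, but none of the 25 words of 31 bases in the printed stretch does, since all of them span the join. Of such words in the whole of Stab1-202, 87.7% also occur in the full-length transcript. Intron-retaining transcripts of *Stab1* held 60.8 ± 7.30% of its reads in WT livers and 54.1 ± 12.1% in *Sirt7* KO livers (SD, n = 3 each).

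**Figure D4:**
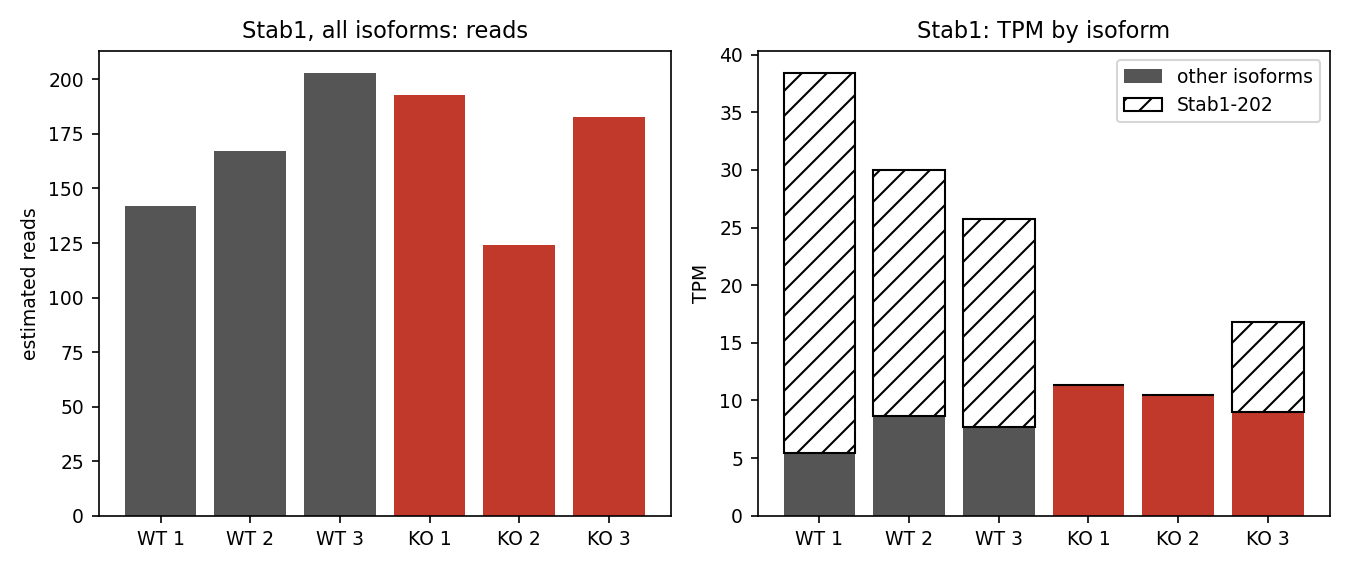
Estimated reads of Stab1 over all isoforms (left) and TPM of Stab1 split into Stab1-202 (hatched) and all other isoforms (filled, right) in each liver, grey for WT and red for Sirt7 KO. The reads overlap between genotypes, and Stab1-202 makes up 70.0 to 85.9% of the TPM in WT livers.

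Sequence shared with other genes was a small part of each marker. Words of 31 bases that also occur in another gene made up 7.52% of those of *Egfl7*, 3.50% of *Clec4g*, 2.50% of *Pecam1*, 1.66% of *Stab1*, 1.31% of *Stab2* and 0.144% of *Kdr*, and none of the other 4. The gene that shares words with *Egfl7*, Gm20532, had 0 reads in all livers. Gm20342, which shares words with *Pecam1*, had 35, 30 and 48 reads in WT livers and 31, 22 and 22 in *Sirt7* KO livers, against 63, 52 and 59 and 59, 25 and 44 for *Pecam1* itself. *Nt5dc2*, which shares words with *Stab1*, had 117, 181 and 154 reads in WT livers and 56, 64 and 80 in *Sirt7* KO livers. How far these reads were divided between such genes was not tested. The library kit does not keep the strand, so reads from the 3′ end of *Egfl7* and from *Agpat2* on the opposite strand cannot be told apart where they overlap.

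Downstream of the ligand BMP2, 10 of 11 target genes of BMP signaling had a log2 fold change below 0, and none passed adjustment in edgeR. While *Bmp2* did not differ beyond the spread between livers, *Bmp6*, the other sinusoidal BMP ligand, named after its values were seen, was at 3.13, 3.54 and 1.92 CPM in WT livers and at 2.29, 1.38 and 1.35 CPM in *Sirt7* KO livers (log2 fold change -0.76, unadjusted p = 0.105). Of 17 ligands and receptors of the pathway, 16 were tested and 0 called by edgeR or DESeq2. *Hjv*, the BMP co-receptor hemojuvelin, was the 1 of 16 with an unadjusted edgeR p under 0.05, against 11.3% of all genes (log2 fold change 0.54, unadjusted p = 0.00531). *Tfr2*, the most abundant of these ligands and receptors, had a log2 fold change of 0.11.

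All 11 BMP target genes were tested, 6 had an unadjusted p under 0.05 and lower values, where 4.78% of all genes did, and their median log2 fold change was -1.39. This list was chosen with earlier results of these data known, so its count is a description and not independent evidence. The lowest p was that of *Bambi*, a decoy receptor, at 9.74, 6.62 and 8.36 CPM in WT livers and 3.75, 4.03 and 3.28 CPM in *Sirt7* KO livers (log2 fold change -1.16, unadjusted p = 0.00158, edgeR adjusted p = 0.17). Of the inhibitors of differentiation, *Id3* had a log2 fold change of -1.70 (edgeR unadjusted p = 0.00829) and *Id1* one of -2.12 (edgeR unadjusted p = 0.0227). It was -0.57 for *Id2*, the most abundant of them (edgeR unadjusted p = 0.278), and -1.39 for *Id4* (edgeR unadjusted p = 0.198). *Atoh8*, a transcription factor that drives hepcidin, was at 75.7, 19.8 and 22.3 CPM in WT livers and at 14.8, 6.25 and 15.6 CPM in *Sirt7* KO livers. Its log2 fold change was -1.68 in edgeR (adjusted p = 0.29), and DESeq2 called it with length offsets (adjusted p = 0.0239) but not without them (adjusted p = 0.31). *Smad7*, an inhibitor of the pathway, had a log2 fold change of -1.71 (unadjusted p = 0.0454).

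These target genes rested in part on WT 1. *Hamp*, which encodes hepcidin, had 18039, 1954 and 6389 reads in WT livers and 3305, 222 and 793 in *Sirt7* KO livers, so WT 1 stood far above the others and *Sirt7* KO 1 above WT 2 (log2 fold change -2.43, unadjusted p = 0.0305, edgeR adjusted p = 0.37). Without WT 1, the number of lower BMP target genes at an unadjusted p under 0.05 fell from 6 to 2, without *Sirt7* KO 2 it was 3, and without *Sirt7* KO 3 it was also 3. The groups did not overlap for 3 of 11, *Id3*, *Atoh8* and *Bambi*, where 8.09% of all genes had every *Sirt7* KO liver below every WT liver.

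**Figure D5:**
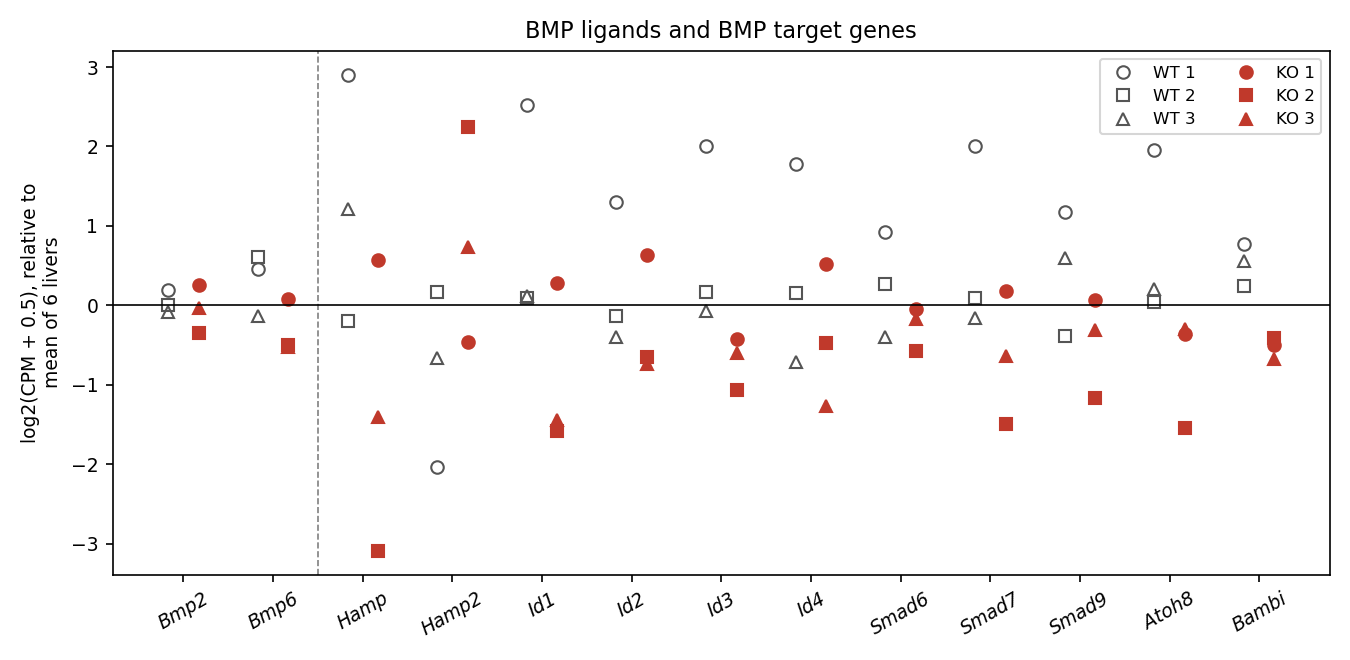
Log2(CPM + 0.5) relative to the mean of 6 livers for the ligands Bmp2 and Bmp6 (left of the dashed line) and 11 BMP target genes, with open grey symbols for WT, filled red symbols for Sirt7 KO and a symbol shape per replicate number. WT 1 is the highest liver for all target genes except Hamp2, for which it is the lowest.

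The neighbor of *Hamp*, *Hamp2*, had the opposite order, with 14, 80 and 52 reads in WT livers and 49, 302 and 114 in *Sirt7* KO livers (log2 fold change 1.95, unadjusted p = 0.0277, edgeR adjusted p = 0.36). It was the 1 gene of the BMP target list higher at that threshold, and its response to BMP was not tested. The liver with the fewest *Hamp* reads, *Sirt7* KO 2, had the most *Hamp2* reads, and WT 1 was the reverse. Of the words of 31 bases of *Hamp*, 33.7% also occur in *Hamp2*, so the assignment of reads between them is uncertain. The 250 bases before their RefSeq starts were 89.7% identical. A stretch of 30 bases around GGCGCC, a core that BMP-responsive SMAD proteins recognize, is shown for *Hamp* (chr7:30944121-30944150, GRCm38.p6, minus strand) and at the aligned place for *Hamp2* (chr7:30924270-30924299, minus strand), with the core in capitals.
Hamp: tcccgcctgtttGGCGCCactattttcttg
Hamp2: tcccgcctgtttGGCACCactatcttcttg
The core differs by G4A, counted from 1 at its 5′ end with the base of *Hamp* first. Whether this base bears on the reads of either gene was not tested. GGCGCC occurred in 9.59% of all promoters of this length, counted per promoter, and, of the 6 markers in the table, counted per gene, before *Wnt2*.

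Downstream of WNT2, the pericentral genes of hepatocytes gave no shared direction. Of 20 WNT ligands and receptors, 17 were tested, and 0 were called or had an unadjusted p under 0.05, with *Ctnnb1*, which encodes beta-catenin, at a log2 fold change of 0.17. *Wnt9b* was at 0.181 to 0.674 CPM and was not tested. Of 15 pericentral target genes, 14 were tested, with a median log2 fold change of 0.17. At an unadjusted p under 0.05, 2 were higher and none lower, against 6.54% and 4.78% of all genes. *Rgn*, which encodes regucalcin, was at 436, 502 and 525 CPM in WT livers and at 614, 888 and 769 CPM in *Sirt7* KO livers (log2 fold change 0.64, unadjusted p = 0.00599, edgeR adjusted p = 0.22), and DESeq2 called it without length offsets (adjusted p = 0.0296) but not with them (adjusted p = 0.0807).

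The liver with the highest *Wnt2*, *Sirt7* KO 1, was not the one with the highest *Cyp1a2*. Its *Rgn* was above every WT liver but was the lowest of the *Sirt7* KO livers. A link between *Wnt2* and these genes was not tested. *Cyp1a2*, a pericentral cytochrome P450, was at 365, 477 and 489 CPM in WT livers and at 370, 981 and 1114 CPM in *Sirt7* KO livers, so that *Sirt7* KO 1, highest for *Wnt2*, lay among the WT livers (log2 fold change 0.89, unadjusted p = 0.0337). *Cyp2e1*, the most abundant of the list, had a log2 fold change of -0.22 (unadjusted p = 0.255).

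The remaining cell type lists held no call by edgeR. Of 8 hepatocyte markers, *Fga*, a fibrinogen chain, had a log2 fold change of 0.87 (edgeR unadjusted p = 0.0069) and was called by DESeq2 with and without length offsets, and *Apoa1* had one of 0.39 (edgeR unadjusted p = 0.0574). Of 8 blood cell and platelet markers, *Alas2*, the heme synthesis enzyme of red cell precursors, had a log2 fold change of 1.26 (edgeR unadjusted p = 0.0018) and was called by DESeq2 with and without offsets. *Hba-a2*, the most abundant of that list, had a log2 fold change of 0.38 (edgeR unadjusted p = 0.284). Stellate, cholangiocyte and leukocyte markers had 0 genes at an unadjusted edgeR p under 0.05 and 0 calls by DESeq2. Their most abundant genes, *Dcn*, *Spp1* and *Ighm*, had log2 fold changes of -0.19, -0.04 and -0.14.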

How the data were processed

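Liver RNA of 3 WT and 3 *Sirt7* KO mice was converted to cDNA with SMART-seq HT and sequenced as Nextera XT libraries. After trimming with Trim Galore 0.6.5, the authors quantified the reads against mouse transcripts (GRCm38) with Salmon 1.2.1 and deposited an estimated count and a TPM per transcript for each mouse. The annotation release is not given in the sources used here. Estimated counts were summed over the genes of GENCODE M21 and rounded. Of 140992 transcripts, 1201 matched no gene of this annotation and were dropped, with 0.303 to 0.492% of the reads. Groups came from the sample titles. Replicates of a genotype differed by more than sampling noise (chi-square of at least 16.9 per gene), so each counted as 1 sample. Depth was 9994860 to 13424776 reads per liver.

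Genotypes were compared with edgeR 4.0.16 (R 4.3.3), by the quasi-likelihood test with TMM scaling and filterByExpr (minimum count 10), with Benjamini-Hochberg adjustment over 12524 genes. Single values were also tested by exact two-sided permutation of log2(CPM + 0.5). DESeq2 1.42.0, with and without offsets from average transcript length (from TPM and effective length), was an alternative, since the study used it. Both tools were tested on simulated data. Other alternatives were RLE, upper quartile and total count scaling, no filter or a minimum mean of 50 counts, the replicate number as a block, and leaving out each liver.

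The 10 markers and the other lists were chosen with earlier results of these data known. Named are *Sirt7*, the 10 markers and, of each other list, every called gene, up to 4 genes with the smallest unadjusted p under 0.05, and the gene with the highest mean TPM. *Bmp6*, *Wnt9b*, *Smad7*, *Id2*, *Id4* and *Hamp2* were named after their values were seen. *Hjv* is listed as Hfe2 in the annotation.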

Additional observations from a re-analysis of the deposited data

How the results depend on the processing

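Of 139 values of single markers under the alternatives, 133 kept their direction and their side of the threshold and 6 changed sign. These were *Stab1* at a log2 fold change of -1.22 in DESeq2 with length offsets, *Lyve1* and *Bmp2* (0.02) without WT 1, *Oit3* without WT 2, and *Pecam1* and *Bmp2* without *Sirt7* KO 2. When each liver was left out in turn, the log2 fold change ranged from -0.042 to 1.28 for *Lyve1*, from -0.081 to 0.48 for *Oit3*, from -0.47 to 0.0058 for *Pecam1* and from -0.23 to 0.088 for *Bmp2*. The number of markers called was 0 in every alternative except DESeq2 with length offsets, where it was 1, and 0 there too without Stab1-202. The median log2 fold change of the markers ranged from 0.11 to 0.37 when each liver was left out in turn. *Lyve1* and *Wnt2* were removed by the filter at a mean of 50 counts.

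Over all genes the number called was 1, and 2 with total count scaling, 633 without a filter, 258 with DESeq2, 242 with DESeq2 and length offsets, and 0 to 252 when each liver was left out. At an unadjusted p under 0.05 with a fold change over 1.5 it was 925. The cause of these differences was not tested. *Sirt7* had a log2 fold change of -0.41 (edgeR adjusted p = 0.42) and of 0.81 in DESeq2 with length offsets. The direction of this gene as a whole thus turned with the method. The number of lower BMP target genes at an unadjusted p under 0.05 was 6, and 10 without a filter and 2 to 8 when each liver was left out.

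Mice with the same replicate number are different animals. Their deviations from the genotype means correlated at 0.0652, 0.08 and -0.0437, which gave no sign of a pairing by number. Whether livers shared a litter or day, under these or other numbers, cannot be told from these values. With the replicate number as a block, 41 genes were called and none of the 10 markers. The depth of 3 to 49 reads per liver for *Lyve1* and *Wnt2* limits the precision of their values, and depth covers counting error only.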
